A study of Mus musculus with 4 samples.

Results

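This report describes 10 immediate early genes (*Fos*, *Fosb*, *Jun*, *Junb*, *Jund*, *Egr1*, *Ier2*, *Dusp1*, *Rgs2* and *Rhob*) in innate lymphoid cell (ILC) precursors of mouse bone marrow, out of 24641 genes listed in the first and 24838 in the second of 2 experiments. All 10 genes were present in both. They were listed because several had a higher level in G3SEKO than in WT precursors in experiment 2 and not in experiment 1, so they were chosen by the ratio of G3SEKO to WT reads in precursors of both experiments, and the cells over which they were listed also included those gated on *Il1rl1* and *Ccr6*. The ratios of G3SEKO to WT are therefore given below as descriptions, with no test, in every gate, and nothing is read from counts of the genes against the share of all genes.

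The cells were αLPs (lymphoid progenitors, Lin−CD127+FLT3−LPAM-1+) of C57BL/6 mice, captured on the BD Rhapsody platform and read by the TAS-Seq method for single cells. WT mice were compared with G3SEKO mice, in which CRISPR-Cas9 was used to remove the tandem super-enhancers that lie downstream of *Gata3*, the gene of the transcription factor that directs ILC2 development. More than one deletion line was obtained, and which of them was used is not given in the sources used here. Within an experiment, cells of several mice of each genotype were marked with hashtag antibodies (an antibody against MHC class I that carries a barcode), combined and sequenced together. Experiment 1 had 3 hashtags per genotype, and since the methods give more mice than hashtags, a hashtag can stand for a pool of mice; how the mice were divided is not stated. Experiment 2 had 2 hashtags, both listed under WT in its labels. One of them, A0303, was taken as G3SEKO here, against that label, which all values given for G3SEKO in experiment 2 assume. Of the cells kept, 5130 carried A0302, 3548 of them in the ST2+ gate defined below, and 1159 carried A0303, 49 of them in that gate. The labels name different sorters for the experiments (FACSAriaII and BD Melody), whereas the study's methods name FACSAria II for both and more bones per mouse in the second experiment.

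Precursors were cells with a value of at least 1 for *Zbtb16* (the ILC precursor factor PLZF) or *Icos* (a costimulatory receptor) and values below 1 for *Il1rl1* (ST2, the IL-33 receptor of ILC2s) and *Ccr6* (a chemokine receptor of lymphoid tissue inducer cells). A value is ln(1 + reads per 10000 reads of the cell). This gate held 181 WT and 26 G3SEKO cells in experiment 1 and 798 WT and 691 G3SEKO cells in experiment 2, out of 724 and 6289 cells kept. All 9 further precursor genes examined (*Tox*, *Tox2*, *Pdcd1*, *Il18r1*, *Tcf7*, *Bcl11b*, *Il17rb*, *Il7r* and *Id2*) had reads in both genotypes of both experiments. Levels below are reads of a gene per 1000000 reads summed over the cells of a gate (CPM). *Gata3* itself had 961 CPM in WT and 857 CPM in G3SEKO precursors of experiment 1, and 916 and 477 CPM in experiment 2. Median reads per precursor were 545653 (WT) and 654896 (G3SEKO) in experiment 1 and 34528.5 and 50084 in experiment 2. Experiment 1 was the deeper library per cell, and experiment 2 held far more cells.

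Immediate early genes are transcribed within minutes of a signal, without new protein synthesis, because the factors that activate them already stand ready in the cell. Fos and Jun proteins pair to form AP-1, a transcription factor downstream of MAP kinases, while Dusp1 and Rgs2 belong to the feedback that ends signalling. In lymphocytes these genes are known to respond to antigen and cytokine receptors, and in tissue work also to the stress of handling cells.

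Shown for reference are promoters of the 4 genes with the largest ratio of G3SEKO to WT in experiment 2 (*Fos*, *Jun*, *Rgs2* and *Rhob*). Those of *Junb*, which had the opposite ratio, and of *Dusp1*, alone among those searched in holding the full cAMP response element, are also shown. Each is the 250 bases before the transcription start in RefSeq (GRCm38.p6), read 5′ to 3′ on the strand of the gene. Capitals mark TGACG (the core of the cAMP response element, bound by CREB and ATF proteins, on either strand) and TATAAA (the box of the TATA-binding protein). They lie at chr12:85473640-85473889 (plus strand, *Fos*), chr4:95052223-95052472 (minus strand, *Jun*), chr1:144004150-144004399 (minus strand, *Rgs2*), chr12:8500010-8500259 (minus strand, *Rhob*), chr8:84978749-84978998 (minus strand, *Junb*) and chr17:26508473-26508722 (minus strand, *Dusp1*), all upstream of the first exon in that annotation.
Fos: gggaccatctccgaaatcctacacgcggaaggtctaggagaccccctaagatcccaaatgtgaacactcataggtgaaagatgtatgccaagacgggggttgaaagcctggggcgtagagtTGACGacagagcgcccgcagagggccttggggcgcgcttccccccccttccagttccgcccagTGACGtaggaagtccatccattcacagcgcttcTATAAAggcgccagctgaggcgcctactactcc
Jun: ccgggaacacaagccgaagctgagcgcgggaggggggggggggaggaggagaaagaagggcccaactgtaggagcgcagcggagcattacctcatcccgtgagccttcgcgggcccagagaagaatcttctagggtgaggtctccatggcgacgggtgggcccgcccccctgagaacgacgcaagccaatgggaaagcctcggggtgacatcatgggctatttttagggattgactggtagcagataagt
Rgs2: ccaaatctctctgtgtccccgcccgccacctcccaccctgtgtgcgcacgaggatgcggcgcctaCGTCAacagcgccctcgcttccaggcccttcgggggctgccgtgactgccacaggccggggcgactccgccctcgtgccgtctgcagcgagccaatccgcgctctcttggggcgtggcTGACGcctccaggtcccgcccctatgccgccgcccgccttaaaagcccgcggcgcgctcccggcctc
Rhob: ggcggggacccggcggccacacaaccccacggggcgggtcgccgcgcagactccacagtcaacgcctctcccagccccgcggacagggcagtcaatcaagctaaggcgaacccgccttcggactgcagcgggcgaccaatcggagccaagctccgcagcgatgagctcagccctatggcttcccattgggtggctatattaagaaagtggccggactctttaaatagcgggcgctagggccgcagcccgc
Junb: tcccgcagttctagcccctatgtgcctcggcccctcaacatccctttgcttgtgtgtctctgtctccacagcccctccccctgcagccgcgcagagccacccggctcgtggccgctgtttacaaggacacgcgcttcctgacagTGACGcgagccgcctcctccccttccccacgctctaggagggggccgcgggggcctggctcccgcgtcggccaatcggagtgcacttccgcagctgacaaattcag
Dusp1: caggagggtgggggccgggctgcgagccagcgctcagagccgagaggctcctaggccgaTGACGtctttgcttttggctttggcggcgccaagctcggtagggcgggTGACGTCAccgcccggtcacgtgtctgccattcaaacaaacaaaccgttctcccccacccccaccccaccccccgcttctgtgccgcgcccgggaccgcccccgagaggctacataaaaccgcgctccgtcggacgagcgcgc

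Windows of 8 of the 10 genes were searched. Chromosome 18, which holds *Egr1*, was left out of this search, and no window of *Ier2* was found. The *Jund* window (plus strand) ends at base 70697738 of chromosome 8. The GENCODE annotation starts that gene further downstream, at 70698949, so the window does not adjoin that start. It held none of the motifs below. TGACG was found in 5 of the 8 (*Dusp1*, *Fos*, *Rgs2*, *Fosb* and *Junb*) and in 17.8% of all 32851 promoter windows of that length. *Fos* held TGACG at −129 to −125 and −66 to −62 and a TATAAA at −33 to −28, counted from the start. *Rgs2* held TGACG at −185 to −181 and −67 to −63. The full element TGACGTCA, which contains TGACG on both strands, was found in *Dusp1* alone, at −143 to −136 (1.55% of all windows). Neither *Jun* nor *Rhob* held TGACG or TATAAA in these letters. GGGCGG (the GC box of SP1, both strands) was found in 6 of the 8 genes and in 32.7% of all windows, and GCGNGGGCG (the motif of EGR proteins, both strands) in 2 of the 8 (*Fosb* and *Rgs2*) and in 4.7%. The CArG box of serum response factor and the AP-1 motif TGANTCA were in none of the 8 windows, against 1.47% and 6.75% of all. Bases outside these windows were not searched, so sites further upstream, or near *Egr1* and *Ier2*, would have been missed. A match in a window is a description of its letters, and so is the lack of one. The genes that had a higher level in G3SEKO precursors of experiment 2 thus included promoters with and without TGACG, as the next values show.

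In precursors of experiment 1 *Fos*, *Fosb* and *Egr1* were rarely read, and in experiment 2 *Fos*, *Fosb*, *Jun*, *Junb* and *Egr1* had a several-fold higher level in both genotypes, and *Dusp1* in WT. *Fos*, which encodes the inducible AP-1 subunit c-Fos, had 7.21 CPM in WT and 12.04 CPM in G3SEKO precursors of experiment 1, and 359 and 704 CPM in experiment 2. By hashtag of experiment 1, *Fos* had 0.150, 9.09 and 12.3 CPM in WT and 0, 0 and 37.8 CPM in G3SEKO. The groups overlapped in experiment 1, where all 230 G3SEKO reads of *Fos* came from 1 cell of the hashtag A0312. Without that hashtag the log2 ratio of G3SEKO to WT moved from 0.74 to −7.96, so the level of *Fos* in G3SEKO precursors of experiment 1 rests on this cell.

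*Fosb*, a second inducible partner of Jun proteins, had 0.873 CPM in WT (109 reads, 77.1% of them in 1 cell) and 0.105 CPM in G3SEKO precursors (2 reads, with a 95% Poisson interval of 0.0127 to 0.378 CPM) of experiment 1. In experiment 2 it had 94.0 and 114 CPM. It was close to undetected in experiment 1 and well above that in both genotypes of experiment 2.

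*Jun*, the main Jun subunit of AP-1, had 76.7 CPM in WT and 100.6 CPM in G3SEKO precursors of experiment 1, and 326 and 602 CPM in experiment 2. The hashtags of experiment 1 gave 73.0, 86.5 and 68.7 CPM in WT and 32.6, 635 and 59.5 CPM in G3SEKO. The G3SEKO hashtags lay on both sides of the WT hashtags, and the highest (A0311) held 3 cells. Without it, the log2 ratio was −0.87 in place of 0.39.

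*Junb*, a Jun protein that promotes type 2 cytokine expression in T cells, had 102 CPM in WT and 35.2 CPM in G3SEKO precursors of experiment 1, and 409 and 269 CPM in experiment 2. Its hashtags in experiment 1 gave 61.4, 113 and 130 CPM in WT and 17.6, 103 and 46.4 CPM in G3SEKO. *Junb* had the lower level in G3SEKO in both experiments, with hashtags that overlapped. *Jund*, the Jun protein that resting cells also express, had 91.8 and 64.4 CPM in WT and G3SEKO precursors of experiment 1, and 216 and 302.7 CPM in experiment 2. Its hashtags of experiment 1 ran from 69.1 to 106 CPM in WT and from 44.9 to 103 CPM in G3SEKO, again with overlap.

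*Egr1*, a zinc finger factor induced through MAP kinases, had 2.47 CPM in WT and 0.157 CPM (3 reads) in G3SEKO precursors of experiment 1, and 44.1 and 52.3 CPM in experiment 2. Of its WT reads in experiment 1, 305 came from the hashtag A0308, and the other two WT hashtags had 1 and 2 reads. *Ier2*, an immediate early gene of a nuclear protein, had 98.1 and 37.4 CPM in WT and G3SEKO precursors of experiment 1, and 233 and 218 CPM in experiment 2. The hashtags gave 60.6, 135 and 91.7 CPM of *Ier2* in WT and 15.3, 110 and 55.2 CPM in G3SEKO. For *Ier2* as for *Egr1*, the values of experiment 2 were close in the 2 genotypes.

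*Dusp1*, a phosphatase that switches off MAP kinases, had 12.1 CPM in WT and 55.2 CPM in G3SEKO precursors of experiment 1, and 69.1 and 75.4 CPM in experiment 2. The high G3SEKO value of experiment 1 came mainly from 1 of the 3 cells of A0311 (788 reads, 418 CPM in that hashtag), and the log2 ratio was 0.35 without this hashtag and 2.18 with it. *Rgs2*, which shortens the signals of G protein-coupled receptors, had 56.7 and 40.9 CPM in WT and G3SEKO precursors of experiment 1, and 66.6 and 172 CPM in experiment 2. Its hashtags gave 14.3, 82.7 and 69.4 CPM in WT and 51.3, 0 and 34.4 CPM in G3SEKO. The WT level of *Rgs2* in experiment 2 lay within the range of the WT hashtags of experiment 1, and the G3SEKO value of experiment 2 stood above the other 3. *Rhob*, a small GTPase that acts on actin and on endosomes, had 15.8 and 7.27 CPM in experiment 1, and 35.4 and 81.9 CPM in experiment 2. Its hashtags of experiment 1 gave 21.2, 16.6 and 9.26 CPM in WT and 11.8, 1.06 and 0.822 CPM in G3SEKO, and the groups overlapped.

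**Figure D1:**
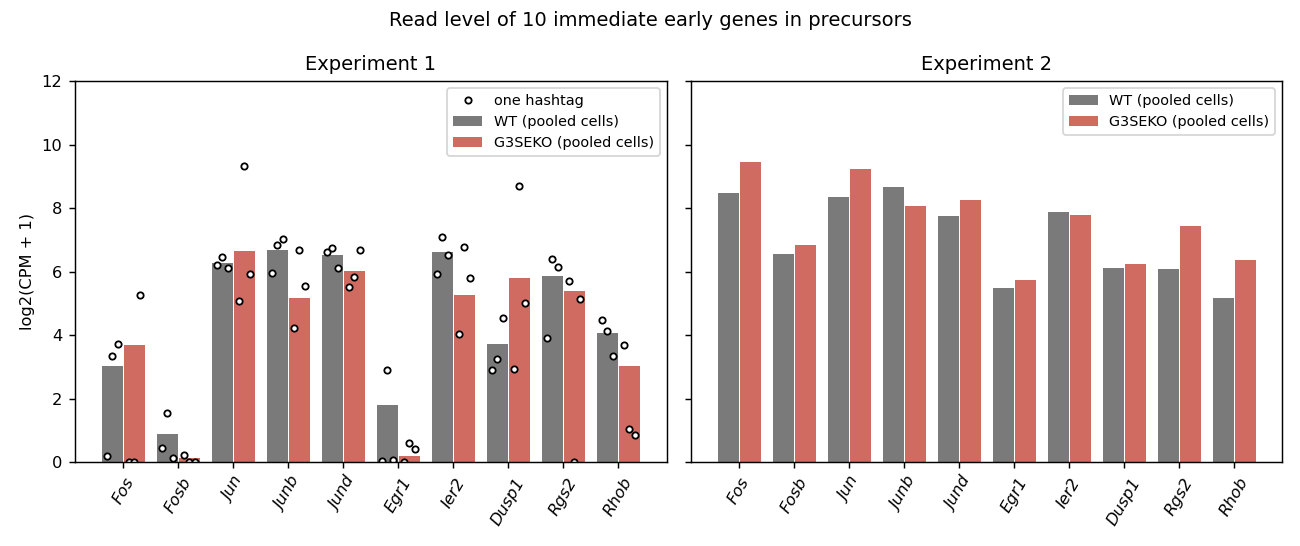
Levels of the 10 genes in precursors of each experiment, as log2(CPM + 1) of the summed reads (bars; gray WT, red G3SEKO), with the 3 hashtags of each genotype in experiment 1 as open circles. In experiment 1 the circles of the genotypes overlap and the G3SEKO circles of *Jun* run from 32.6 to 635 CPM. In experiment 2 the G3SEKO level is at least 1.5-fold higher for *Fos*, *Jun*, *Rgs2* and *Rhob* and at least 1.5-fold lower for *Junb*. The other genes differ by less.

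The log2 difference between the experiments in WT precursors was larger in size than that between the genotypes in experiment 2 for all but *Rgs2* and *Rhob*. In WT precursors, *Fos* had a 49.6-fold higher CPM in experiment 2 than in experiment 1 and ranked 4 among 9771 genes with at least 10 CPM on average. *Fosb* ranked 2 and *Egr1* (17.7-fold) ranked 6. *Dusp1* (5.70-fold), *Jun* (4.24-fold) and *Junb* (4.02-fold) followed, then *Ier2* (2.38-fold), *Jund* (2.35-fold) and *Rhob* (2.23-fold). *Rgs2* (1.17-fold, rank 3911) stood apart from the others. At least a 4-fold higher CPM was reached by 6 of the 10 genes, against 0.931% of all genes, and the median log2 ratio was 2.05, against 0.10 over all genes. *Fos*, *Fosb* and *Egr1* had under 10 CPM in experiment 1, so these 3 passed the filter on the average only through experiment 2, where they were high. The WT values are also one side of the contrast that chose the genes, and nothing is read from this count. The experiments differed in mice and depth, and by the methods in the bones taken or by the labels in the sorter, which cannot be told apart, and with 1 library per experiment there was no test.

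The same comparison in WT cells of the ST2+ gate (*Il1rl1* at least 1, *Ccr6* below 1; 424 and 3548 cells) is given as a description, since this gate is also among those over which the genes were listed. *Fos* had 9.68 CPM in experiment 1 and 526 CPM in experiment 2 (54.3-fold, rank 2 of 9396). *Fosb* (7.37 and 175 CPM), *Egr1* (7.53 and 112 CPM), *Dusp1* (13.6 and 111 CPM), *Jun* (84.3 and 394 CPM) and *Rhob* (8.59 and 35.2 CPM) also passed 4-fold. These were 6 of the 10 genes, against 0.266% of all genes, with a median log2 ratio of 2.13 (0.10 over all genes). Of the 6, *Fos*, *Fosb*, *Egr1* and *Rhob* had under 10 CPM in experiment 1 and passed the filter only through experiment 2. In the 26 and 691 G3SEKO precursors, 9 of the 10 (all but *Dusp1*) had an at least 4-fold higher CPM in experiment 2, against 5.54% of all genes. That count restates the choice of the genes, which were listed for their level in these cells, and its experiment 1 side rests on few reads of *Fosb* and *Egr1* and on 1 cell for *Fos*.

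Reads per cell differed between the experiments, so for shares of cells with a read each cell was thinned to the same number of reads, the lower read limit of experiment 2. *Fos* then had a read in 1.66% of the 181 WT precursors of experiment 1 (exact 95% binomial interval 0.343 to 4.77%) and in 37.0% of the 798 of experiment 2 (33.6 to 40.4%). Without thinning, the shares of WT precursors with a *Fos* value of at least 1 were 2.21% and 32.5%. *Rgs2* had a read in 14.9% (10.1 to 20.96%) and 10.3% (8.26 to 12.6%) of the thinned WT precursors. These intervals, like those of the other shares given here, cover counting error alone, and cells of the same library are no replicates. Reads copied from the same molecule were not collapsed, so a Poisson interval of CPM is too narrow even for counting error. No cell type in these libraries is known to lack these genes, so the share that free RNA would give could not be read.

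Other lists of related genes were counted in the same way, with no test of their difference from the 10 genes. In WT precursors an at least 4-fold higher CPM in experiment 2 was found in 0 of 6 other AP-1 genes with at least 10 CPM on average, 0 of 7 other immediate early factors, 1 of 10 feedback inhibitors (*Rgs1*) and 1 of 10 heat shock genes (*Hspa1a*), against 0.931% of all genes. The medians of these lists were 0.48, 0.30, 0.57 and 0.44 on the log2 scale. In the ST2+ gate the counts were 0 of 5, 1 of 9 (*Nr4a1*), 3 of 8 (*Tnfaip3*, *Ppp1r15a* and *Gadd45b*) and 1 of 10 (*Hspa1a*), against 0.266% of all genes, with medians of 0.15, 0.79, 1.78 and 0.78. The median of the feedback inhibitors was thus near that of the 10 genes in this gate. Genes named from these counts were chosen after their values were seen.

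Within experiment 2, G3SEKO precursors had a higher level of *Rgs2* (2.58-fold), *Rhob* (2.32-fold), *Fos* (1.96-fold) and *Jun* (1.85-fold) than WT precursors. *Jund* (1.40-fold), *Fosb* (1.21-fold), *Egr1* (1.19-fold) and *Dusp1* (1.09-fold) were higher by less than 1.5-fold. On the other side, *Ier2* (0.933-fold) lay within this limit and *Junb* (0.658-fold) past it. These are the values that chose the genes. At 1.5-fold, 4 of the 10 were higher and 1 was lower, where 8.09% and 7.41% of all 9749 genes with at least 10 CPM on average were. Nothing is read from this count.

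In experiment 1 the same ratio was at least 1.5-fold higher for 2 of the 10 (*Fos* and *Dusp1*) and lower for 5 (*Junb*, *Ier2*, *Rhob*, *Fosb* and *Egr1*), with 20.7% and 21.9% of all 9550 genes past these limits. The low-level filter of this background was passed by 7 of the 10, all but *Fos*, *Fosb* and *Egr1*. The median log2 ratio of the 10 genes was −0.81 in experiment 1, also with *Fosb* and *Egr1* set to the floor of 3 reads in G3SEKO, and 0.38 in experiment 2. Over all genes the medians were 0.00 and 0.03. With the cell of most reads of each gene left out in each genotype, a step added after seeing the data, the medians were −1.98 and 0.40, and 1 and 4 genes were at least 1.5-fold higher.

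The higher level in experiment 2 came with more cells in which the gene was read. *Fos* had a value of at least 1 in 32.5% of WT precursors (95% interval 29.2 to 35.8%) and in 48.5% of G3SEKO precursors (44.7 to 52.3%). For *Jun* the shares were 33.1% (29.8 to 36.5%) and 50.5% (46.7 to 54.3%). *Rgs2* had 8.02% (6.23 to 10.1%) and 22.3% (19.2 to 25.6%), and *Rhob* 4.89% (3.498 to 6.62%) and 13.7% (11.3 to 16.5%). For *Rgs2* and *Rhob* the level among the cells at or above 1 was not higher in G3SEKO, with medians of 554 and 535 CPM for *Rgs2* and of 471 and 370 CPM for *Rhob* in WT and G3SEKO. For *Fos* these medians were 830 and 1087 CPM and for *Jun* 756 and 838 CPM.

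*Junb* had a value of at least 1 in 45.7% of WT (42.2 to 49.3%) and 34.7% of G3SEKO precursors (31.2 to 38.4%), with medians among these cells of 907 and 584 CPM. Both its share and its level per positive cell were thus the lower in G3SEKO. G3SEKO cells were the deeper ones in experiment 2. After thinning, *Fos* had a read in 37.0% and 52.1% of cells, *Jun* in 39.1% and 56.0%, *Rgs2* in 10.3% and 25.3%, *Rhob* in 6.14% and 17.8% and *Junb* in 52.0% and 41.5%. The order of the genotypes was the same with and without thinning for these 5 genes.

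In experiment 1, *Fos* had a value of at least 1 in 4 of 181 WT and 1 of 26 G3SEKO precursors. *Fosb* and *Egr1* reached it in 0 of 181 and 0 of 26, which allows shares of up to 1.66% and 11.5% at a floor of 3 cells (2.02% and 13.2% by the exact 95% interval). For *Rgs2* the shares were 8.84% (5.14 to 13.96%) in WT and 7.69% (0.946 to 25.1%) in G3SEKO, and for *Junb* 19.3% (13.9 to 25.9%) and 7.69% (0.946 to 25.1%). The G3SEKO intervals of experiment 1 are wide and overlapped those of WT for both genes.

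**Figure D2:**
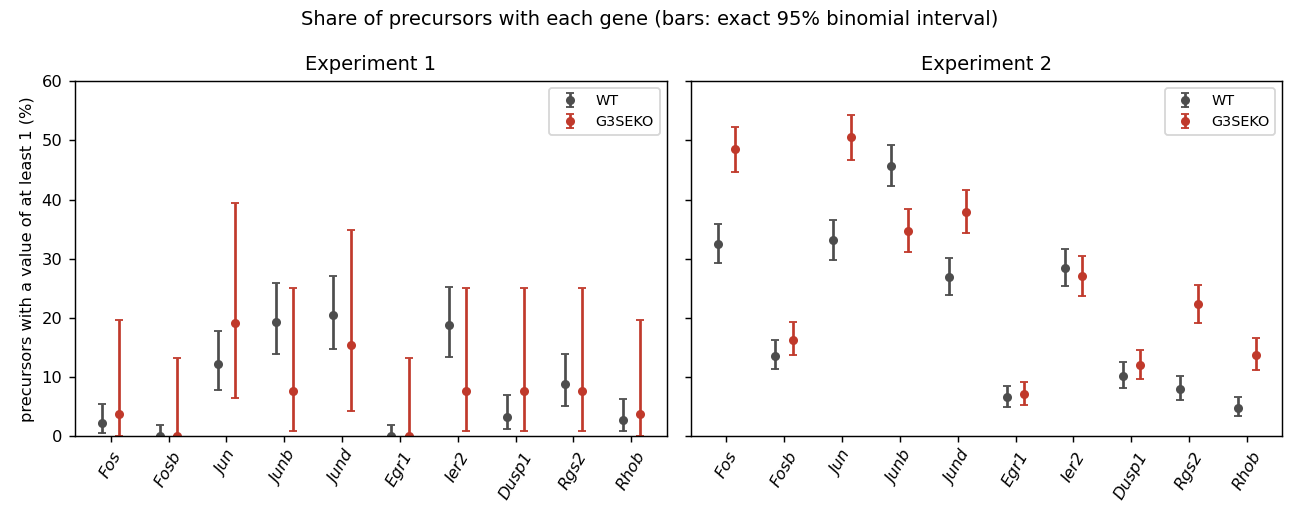
Share of precursors with a value of at least 1 for each gene, in percent, by experiment and genotype (gray WT, red G3SEKO), with exact 95% binomial intervals that cover counting error only. In experiment 2 the *Fos*, *Jun*, *Jund*, *Rgs2* and *Rhob* points are higher in G3SEKO and the *Junb* point is lower, with intervals that do not overlap. Those of *Fosb*, *Egr1*, *Ier2* and *Dusp1* overlap. In experiment 1 the G3SEKO intervals of 26 cells are wide.

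Some precursors of experiment 2 had reads of several of these genes in the same cell. In experiment 2 a WT precursor had a value of at least 1 for a median of 2 of the 10 genes and a G3SEKO precursor for 3, and 5 or more were reached by 7.02% and 17.5% of cells (11.03% and 22.7% with at least 1 read after thinning). In experiment 1 the medians were 1 and 0.5, and no cell reached 5, although 0.552% of WT cells did with at least 1 read after thinning. The correlation between genes across cells was weak. In the 691 G3SEKO precursors of experiment 2 the highest Pearson r of a pair was 0.32, between *Fos* and *Jun* (0.21 in WT). In the 798 WT precursors it was 0.25, between *Fos* and *Fosb* (0.25 in G3SEKO). All these cells share a library, and 16.01% of the values above 0 in experiment 2 were single reads (28.8% in experiment 1).

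The genes whose values were most like the mean of the 10 across the 1489 precursors of experiment 2 (centred within genotype, 8222 genes read in at least 10% of cells) were *Zfp36* (r = 0.29), an RNA-binding protein that promotes decay of cytokine transcripts, *Zfp36l2* (0.18) of the same family, *Inpp4b* (0.17), *Gm4070* (0.17), *Gimap3* (0.17), *Rnf128* (0.17), *Gvin1* (0.17) and *Ly6a* (0.16). Across the 207 precursors of experiment 1 their r ran from 0.06 (*Zfp36l2*) to 0.20 (*Gimap3*), with 0.07 for *Zfp36*. These values are low and describe sparse counts. The mean of the 10 genes had an r of 0.01 with the log10 of reads per cell in experiment 2 and of 0.00 in experiment 1. For the genes named as most like it, the r with this depth in experiment 2 ran from −0.07 (*Zfp36*) to −0.21 (*Gimap3*). *Zfp36*, the gene most like the 10, had 332 CPM in WT and 214 CPM in G3SEKO precursors of experiment 2, the same side as *Junb*.

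The precursor gate joins cells with *Zbtb16* at or above 1 (Zbtb16+) and cells with *Icos* alone (Icos+ Zbtb16-low), and the genotypes differed in this makeup. In experiment 2 the Zbtb16+ cells were 229 of 798 WT and 373 of 691 G3SEKO precursors, and in experiment 1 98 of 181 and 20 of 26. The genotype values were therefore also taken within each. In Zbtb16+ cells of experiment 2, *Fos* had 247 CPM in WT and 648 CPM in G3SEKO, *Rgs2* 53.3 and 158 CPM, and *Jund* 132 and 272 CPM. *Junb* had 163 and 207 CPM there, so its lower level in G3SEKO was not found in this subset. At 1.5-fold, 6 of the 10 (*Fos*, *Fosb*, *Jun*, *Jund*, *Rgs2* and *Rhob*) were higher and 0 lower, against 10.1% and 9.66% of all genes. These are the cells and the contrast that chose the genes, split by subset, and the counts restate that choice.

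In Icos+ Zbtb16-low cells, *Fos* had 422 and 779 CPM, *Rgs2* 74.1 and 191 CPM, and *Junb* 547 and 351 CPM in WT and G3SEKO. In this subset 5 of the 10 (*Fos*, *Jun*, *Egr1*, *Rgs2* and *Rhob*) were higher and 1 (*Junb*) lower, against 14.2% and 10.7%. *Fos*, *Jun*, *Rgs2* and *Rhob* were at least 1.5-fold higher in both subsets of experiment 2. In experiment 1, 1 of the 10 was higher and 7 lower in the Zbtb16+ subset (22.9% and 24.5% of all genes), and 4 were higher and 5 lower in the Icos+ Zbtb16-low subset, which held 6 G3SEKO cells (31.1% and 39.9%). In experiment 2 *Egr1* differed in direction between the subsets, with 47.5 and 32.7 CPM in Zbtb16+ and 42.2 and 78.8 CPM in Icos+ Zbtb16-low cells.

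Cells outside the precursor gate were compared in experiment 2 as well. In the ST2+ gate (3548 WT and 49 G3SEKO cells), *Fos* had 526 and 636 CPM, *Jun* 394 and 475 CPM, *Rgs2* 63.9 and 87.6 CPM, and *Rhob* 35.2 and 39.3 CPM. None of the 10 genes was at least 1.5-fold higher in G3SEKO, and 3 were lower, against 26.9% and 23.7% of all genes. The 3 were *Junb* (912 and 460 CPM), *Ier2* (341 and 148 CPM) and *Egr1* (112 and 5.50 CPM). The low *Egr1* value rests on 14 reads of 49 cells, in which 2.04% had a value of at least 1 (interval 0.0517 to 10.9%), against 10.3% (9.36 to 11.4%) in WT. *Gata3* had 1039 and 296 CPM in these cells. The few G3SEKO cells of this gate also had other levels of precursor and ILC2 genes than WT cells, with 42.7 and 795 CPM of *Tcf7*, 53.6 and 876 CPM of *Il18r1* and 30.6 and 305 CPM of *Zbtb16* in WT and G3SEKO. The 4 ILC2 markers summed to 2181 and 1868 CPM, with *Il2ra* at 582 and 147 CPM and *Rora* the other way at 529 and 1424 CPM. Markers of LTi cells and ILC3s summed to 25.8 and 283 CPM there, those of NK cells and ILC1s to 2.401 and 43.6 CPM and the proliferation genes to 79.5 and 163 CPM, and the part of these levels in the values of the 10 genes was not tested. The planned test of the genotypes over both experiments was not run in this gate, because it held 2 G3SEKO cells in experiment 1.

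In the Ccr6+ gate (39 WT and 109 G3SEKO cells of experiment 2), 8 of the 10 genes were at least 1.5-fold higher in G3SEKO and 0 lower, against 26.9% and 26.7% of all genes. This gate too is among those over which the genes were listed, so the count is a description. *Fos* had 279 and 674 CPM, *Jun* 615 and 1084 CPM, and *Junb* 533 and 838 CPM. The exceptions were *Ier2* (240 and 309.3 CPM) and *Rgs2* (86.6 and 109 CPM). Other genes differed between these WT and G3SEKO cells as well, with 2.52 and 66.7 CPM of the summed proliferation genes, 35.7 and 97.5 CPM of the NK cell and ILC1 markers (*Tbx21* at 0 in WT), 399 and 174 CPM of *Cxcr5* and 455 and 785 CPM of *Tcf7*, while the LTi and ILC3 markers summed to 749 and 745 CPM. Their part in the values of the 10 genes was not tested. In the 745 WT and 310 G3SEKO cells that passed none of the gates, 4 of the 10 (*Fos*, *Jun*, *Rgs2* and *Rhob*) were higher and 1 (*Junb*) lower, against 20.7% and 13.4%. There *Rgs2* had 70.3 and 226 CPM and *Junb* 938 and 438 CPM. The 4 genes at least 1.5-fold higher in precursors were thus also past 1.5-fold in cells with no gate, and in Ccr6+ cells except for *Rgs2* (1.26-fold). All these gates come from the same pair of hashtags, so they are no replicates of the genotype difference.

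**Figure D3:**
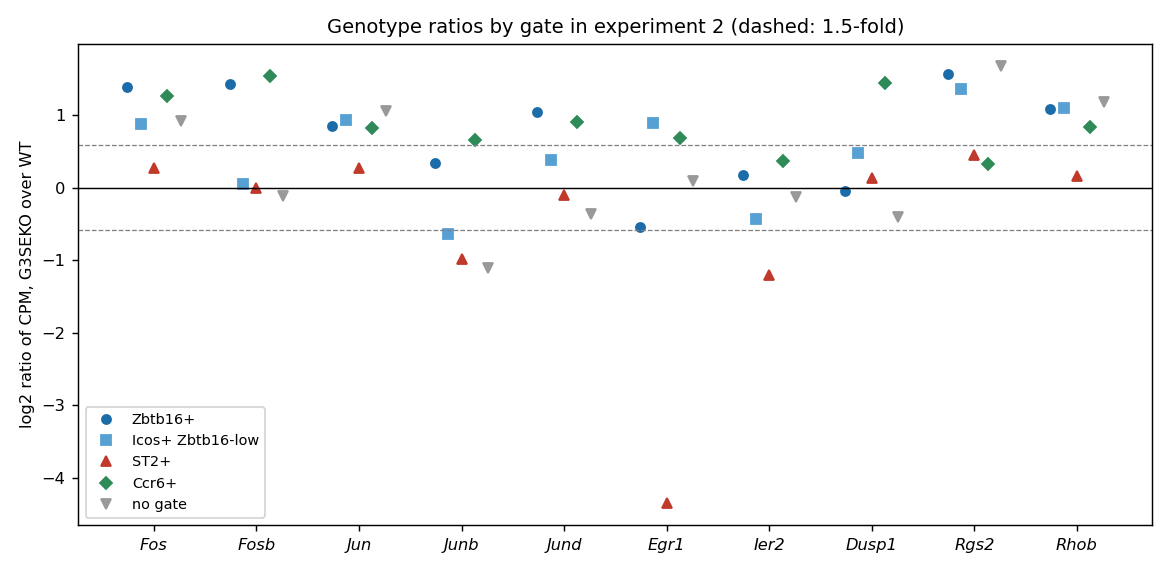
Log2 ratio of CPM (G3SEKO over WT) for each gene in 5 gates of experiment 2, with dashed lines at 1.5-fold. *Fos*, *Jun*, *Rgs2* and *Rhob* lie above 0 in every gate shown, and the points of the ST2+ gate (49 G3SEKO cells) lie within 1.5-fold for these 4 genes, while its *Egr1* point lies at −4.35.

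Other measures moved with the genotype in precursors of experiment 2, and their part in the values above was not tested. The 9 precursor genes named above summed to 6825 CPM in WT and 8977 CPM in G3SEKO (8463 and 10788 CPM in experiment 1), with *Tox2* at 235 and 470 CPM, *Pdcd1* at 198 and 389 CPM and *Il18r1* at 395 and 790 CPM in experiment 2. ILC2 markers (4 of 4 with reads) summed to 2556 and 2341 CPM (2810 and 2751 CPM in experiment 1), and among them *Il2ra*, the receptor chain CD25, had 217 and 25.7 CPM in experiment 2, while *Rora*, a transcription factor of ILC2 development, went the other way with 1401 and 1836 CPM. Summed markers of NK cells and ILC1s (5 of 5 with reads) had 39.4 CPM in WT and 135 CPM in G3SEKO, and in experiment 1 the order was the other way (223 and 48.0 CPM). Markers of LTi cells and ILC3s (3 of 3) had 190 and 356 CPM, and 220 and 419 CPM in experiment 1, where *Il23r* was at 0 in G3SEKO. T lineage markers (5 of 5) summed to 14.6 and 21.4 CPM, and myeloid markers to 3.72 (5 of 7, *S100a8* and *S100a9* at 0) and 1.39 CPM (7 of 7). Mast cell and basophil markers summed to 64.7 and 104 CPM (1 of 3, *Cpa3*), with *Mcpt8* and *Fcer1a* at 0 in both genotypes. The proliferation genes *Mki67* and *Top2a* summed to 348 and 322 CPM. Median mitochondrial reads were 2.91% and 2.62%. Without cells that had a value of at least 1 for a T, B, myeloid, erythroid or mast cell and basophil marker, the median log2 ratio of the 10 genes in experiment 2 was 0.41, and without proliferating cells it was 0.39, with 4 genes at least 1.5-fold higher in each.

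Related genes did not share a direction in precursors of experiment 2. Of 9 feedback inhibitors with at least 10 CPM on average, 1 (*Dusp6*) was at least 1.5-fold higher in G3SEKO and 4 (*Zfp36*, *Nfkbia*, *Tnfaip3* and *Rgs1*) were lower. *Nfkbia*, the inhibitor of NF-κB that NF-κB itself induces, had 354 CPM in WT and 167 CPM in G3SEKO in experiment 2, and 212 and 104 CPM in experiment 1. *Zfp36* also had the lower level in G3SEKO in both experiments (91.1 and 22.8 CPM in experiment 1), while *Dusp5*, a nuclear phosphatase of ERK, had 102 and 102 CPM in experiment 2 and 97.6 and 148 CPM in experiment 1. The list median was −0.32 in experiment 2 and −1.03 in experiment 1, where 1 of 9 was higher and 6 were lower.

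Of 9 other immediate early factors, 2 (*Nr4a1* and *Klf2*) were at least 1.5-fold higher and 1 (*Klf6*) lower in experiment 2, with *Btg2*, an antiproliferative gene, at 271 and 235 CPM, *Ier5* at 189 and 161 CPM and *Klf6* at 160 and 101.3 CPM. Of 6 other AP-1 genes, 1 (*Batf3*) was higher and 1 (*Jdp2*) lower, with *Atf4*, the factor of the amino acid and unfolded protein response, at 136 and 116 CPM, *Nfe2l2* at 92.6 and 76.6 CPM and *Batf* at 84.9 and 76.5 CPM. The medians of these lists were 0.24 and −0.19. In experiment 1 they were −0.64 (1 of 7 higher and 4 lower) and 0.45 (1 of 5 higher and 2 lower), each on the other side of 0. Of 11 heat shock genes, 3 (*Hspa1a*, *Hspa1b* and *Hsph1*) were higher and 0 lower in experiment 2, and 0 of 9 were higher and 1 (*Dnajb1*) lower in experiment 1. The abundant chaperones *Hsp90ab1* (3018 and 3690 CPM), *Hspa8* (1326 and 1482 CPM) and *Hsp90aa1* (761 and 829 CPM) stayed within 1.5-fold in experiment 2. The share of all genes past 1.5-fold was that given above for this comparison.

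Differences between stages were examined in WT cells. This is another contrast than the one that chose the genes, but the WT precursors are one side of both, so a low level in WT precursors of experiment 2 was favoured by the choice, and the differences toward the ST2+ gate are not independent of it. Reads were summed per gate and experiment and tested with edgeR (quasi-likelihood, experiment as a block, 21776 genes). Toward the ST2+ gate, *Junb* had 102 and 409 CPM in precursors and 391 and 912 CPM in ST2+ cells of experiments 1 and 2, a log2 difference of 1.61 ± 0.21 (SE) with an edgeR adjusted p of 0.0938. *Egr1* had 2.47 and 44.1 CPM and then 7.53 and 112 CPM (1.53 ± 0.19, edgeR adjusted p = 0.0899), and *Jund* 91.8 and 216 CPM and then 316 and 377 CPM (1.35 ± 0.26, edgeR adjusted p = 0.147). All 3 were higher in ST2+ cells in both experiments.

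The differences were 1.96 ± 0.58 for *Fosb*, 0.91 ± 0.18 for *Ier2*, 0.55 ± 0.11 for *Fos*, 0.48 ± 0.20 for *Dusp1* and 0.26 ± 0.11 for *Jun*, each higher in ST2+ cells in both experiments. For *Rgs2* and *Rhob* they were −0.50 ± 0.29 and −0.38 ± 0.31, with levels in experiment 2 that were almost equal (66.6 and 63.9 CPM of *Rgs2*, 35.4 and 35.2 CPM of *Rhob* in precursors and ST2+ cells). With an edgeR adjusted p under 0.05, 0 of the 10 genes were called, against 0.00459% of all genes called higher and 0.17% lower. At an unadjusted p under 0.05 there were 6 of 10, all of them higher in ST2+ cells (*Fos*, *Fosb*, *Junb*, *Jund*, *Egr1* and *Ier2*), against 15.4% of all genes, and given that dependence nothing is read from this count. DESeq2 called the same 6, among 2166 genes in all. The median log2 difference of the 10 genes was 0.73, against 0.04 over all genes.

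No list of related genes had a member called by edgeR between these gates. At an unadjusted edgeR p under 0.05, the share of all genes was 15.4%. The lists had 7 of 13 feedback inhibitors and 4 of 13 other immediate early factors. There were 2 of 8 other AP-1 genes and 3 of 11 heat shock genes. The medians of the lists, in this order, were 0.58, 0.47, 0.19 and −0.09.

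Between the subsets of WT precursors, none of the 10 genes passed the threshold, and *Junb* and *Jund* had the lowest p-values. *Junb* had 55.3 and 163 CPM in Zbtb16+ and 180 and 547 CPM in Icos+ Zbtb16-low cells of experiments 1 and 2 (log2 difference 1.77 ± 0.17, edgeR adjusted p = 0.0656 over 17889 genes). *Jund* had 54.9 and 132 CPM and then 154 and 263 CPM (1.30 ± 0.22, edgeR adjusted p = 0.102). Both had the higher level in Icos+ Zbtb16-low cells in both experiments. With edgeR, 0 of the 10 genes were called, against 0.0112% of all genes called higher and 0.0447% lower. At an unadjusted p under 0.05 there were 2 of 10 (*Junb* and *Jund*), against 12.3%, and DESeq2 called the same 2, among 1391 genes in all.

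*Fos* had 10.1 and 247 CPM in Zbtb16+ and 2.32 and 422 CPM in Icos+ Zbtb16-low cells (−0.54 ± 0.70), with opposite directions in the experiments. *Fosb* (1.16 and 37.7, then 0.387 and 126 CPM) and *Rgs2* (76.0 and 53.3, then 24.3 and 74.1 CPM) also turned between the experiments. So did *Dusp1* (13.5 and 50.4, then 9.77 and 79.6 CPM). *Rhob* had the lower level in Icos+ Zbtb16-low cells in both (21.8 and 44.4, then 5.76 and 30.3 CPM; −1.18 ± 0.53). Of the lists of related genes, none had a member called. At an unadjusted edgeR p under 0.05, the share of all genes was 12.3%. The lists had 6 of 12 feedback inhibitors and 2 of 12 other immediate early factors. There were 1 of 8 other AP-1 genes and 4 of 11 heat shock genes. With 2 sums per gate the test has little power. In simulated data of this size edgeR recovered 55.0% (ST2+ against precursors) and 29.5% (between the subsets) of 200 genes changed 4-fold. The simulation held no difference between the experiments, unlike the data, so recovery in the data may differ.

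**Figure D4:**
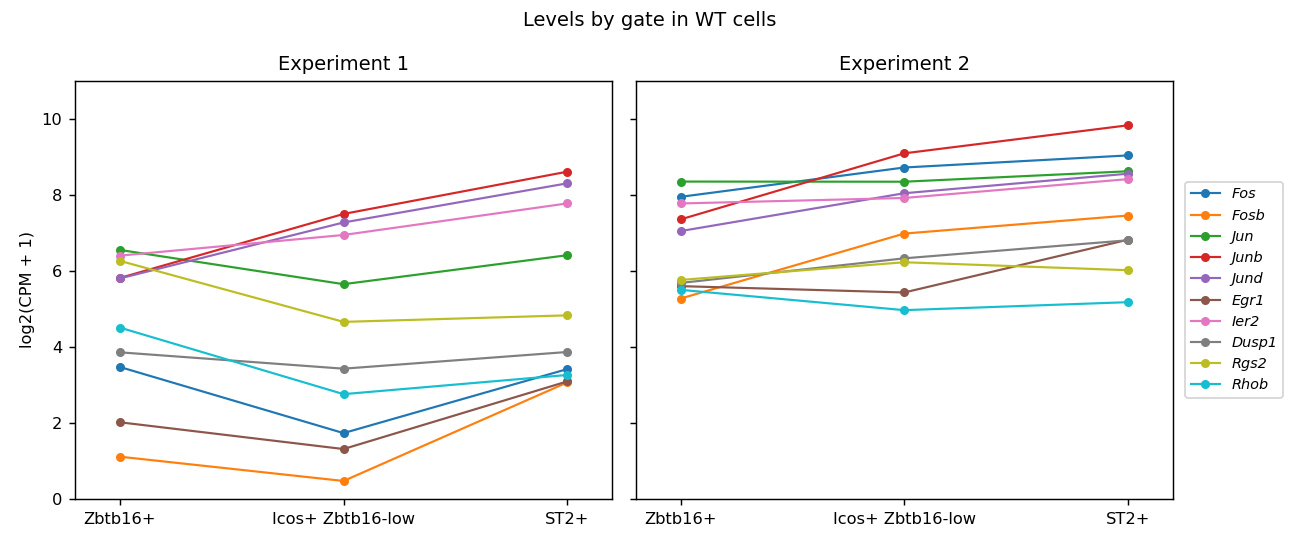
Levels of the 10 genes in WT cells of 3 gates, as log2(CPM + 1) of summed reads in each experiment, with 1 line per gene. *Junb* (red) and *Jund* (purple) climb from Zbtb16+ to Icos+ Zbtb16-low to ST2+ cells in both experiments, while *Fos*, *Fosb* and *Egr1* lie far lower in experiment 1 than in experiment 2 in all 3 gates.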

How the data were processed

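Single cells of 2 experiments, each with WT and G3SEKO αLPs, were analysed. To make the tables, the authors trimmed reads (Cutadapt), mapped them to the GRCm38 release of Ensembl (Bowtie2) and took cells above the knee of the read curve. What they deposited are raw counts, with genes as rows, cells as columns and the hashtag call in each cell's name. Reads of a molecule were not collapsed. Columns named as doublets or without a hashtag (102) were not used, and no other doublet caller was run. The deposited hashtag counts were not used.

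Cells within the study's read limits, with at most 10% mitochondrial reads and an *Id2* value of at least 1, were kept (1031 and 7530 cells with 1 hashtag, 800 and 7522 after the read and mitochondrial limits, 724 and 6289 after *Id2*). The experiments shared 5 cell numbers, 0 of them with the same hashtag. Reads were summed per gate, genotype and experiment and given as CPM, and ratios were taken after adding 2 reads, scaled to each sum. Stage differences in WT cells were tested with edgeR 4.0.16 (quasi-likelihood, TMM, filterByExpr, Benjamini-Hochberg over all genes) in R 4.3.3, with DESeq2 1.42.0 as an alternative. The experiment is a block because both gates come from the same library. Deviations from the gate means correlated within experiments with r = 0.585 (ST2+ against precursors) and 0.327 (between subsets) over genes. In the simulated data, which held no difference between the experiments, 25.2% and 15.7% of the edgeR calls were genes left unchanged. Sums are of different cells of pooled mice. With the block, p-values rest on how far the gate difference varied between the experiments, moderated over genes by edgeR. They do not measure the spread between mice. The genotypes in precursors were compared with no test.

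The 10 genes and the lists of related genes were chosen with earlier results of these data known. Named are all 10 genes, the 3 genes of highest mean CPM of each list and the 8 genes most like the mean of the 10. Promoters came from RefSeq (GRCm38.p6). Alternatives were other limits for gates, *Id2* and mitochondrial reads, thinned cells, cells left out by markers, the mean of each cell's CPM, each hashtag or experiment left out, DESeq2, other size factors, no filter and no block. Centring on all genes, totals without Gm and ribosomal protein genes, and leaving out the cell of most reads were added after seeing the data. The summed levels of 2 further marker lists are not reported here.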

Additional observations from a re-analysis of the deposited data

How the results depend on the processing

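The median log2 ratio of the 10 genes in precursors kept its sign in every alternative run within each experiment, from 0.11 to 0.52 in experiment 2 and from −1.98 to −0.14 in experiment 1, and the 4 genes at least 1.5-fold higher in experiment 2 stayed 4 in number. Averaged over the experiments the median was −0.22 (0.12 without the *Id2* limit and −0.07 without cells with other lineage markers), and with either experiment left out it was −0.81 or 0.38. In experiment 1 the number at least 1.5-fold higher was 2, and it was 4 without the *Id2* limit. It was 3 with gates at 2 and 3 after thinning. With the mean of each cell's CPM it was 1, and without the cell of most reads 1 (median then −1.98). With a hashtag left out it ran from 1 to 3 (1 without A0307 or A0311). Gates set at 1 read left no G3SEKO precursors in experiment 1 and gave no value there. *Egr1* in experiment 1 (−3.76, on 3 G3SEKO reads) turned to 1.70 without the *Id2* limit, to 0.30 after thinning and to 1.32 without A0308. *Fos* (0.74) turned to −7.96 without A0312 and to −7.49 without its top cell, and *Rgs2* (−0.47) to 1.19 without the *Id2* limit. With a hashtag left out, *Egr1* ran from −4.56 to 1.32 and *Fos* from −7.96 to 1.998.

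Between ST2+ cells and precursors, edgeR called 38 genes, against 4 without the *Id2* limit, 0 with gates at 2, 1 with gates at 1 read, 9 at a 5% mitochondrial limit, 346 after thinning, 8 without proliferating cells, 6 without cells with other lineage markers, 19 with RLE size factors, 10 with no filter and 2166 with DESeq2. Of the 10 genes, 0 were called, against 2 after thinning (*Junb* and *Jund*) and 6 with DESeq2. Between the subsets it called 10 genes, against 0 without the *Id2* limit, at the 5% limit, without proliferating cells, without cells with other lineage markers or with RLE size factors, 1 with gates at 1 read, 492 after thinning, 136 with no filter and 1391 with DESeq2, and 0 of the 10 genes, against 3 after thinning, 1 with no filter (*Junb*) and 2 with DESeq2. Without the experiment as a replicate block, 0 genes were called in either comparison. The causes were not tested. With either experiment left out there is no residual spread and no test. The genotype values of experiment 1 are limited by 26 G3SEKO precursors, and those of experiment 2 rest on the assignment of A0303.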
